A study of Mus musculus with 24 samples.

Results

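The response of cultured mouse microglia to a mixture of 4 inflammatory cytokines was set against the sum of the responses to the same cytokines given one at a time. The libraries were chosen by their labels and not by any measured value: 18 of the 24 RNA-seq libraries of the series, 3 in each of 6 groups, come from neonatal cells and enter the comparison. All of these cells, the controls included, come from neonatal mice of the MRL/lpr strain, which carries the lpr mutation of the death receptor gene Fas and develops a lupus-like disease. Brain cells were released by enzymatic digestion, taken out by magnetic selection for CD11b (an integrin on the surface of myeloid cells) and kept for 48 h in culture medium with 10% serum. The 6 groups were left unstimulated or received interferon gamma (IFNg), interleukin 6 (IL-6), interferon alpha (IFNa), tumour necrosis factor alpha (TNFa) or these 4 together, for 6 h. Doses are not in the labels, so whether a cytokine had the same concentration in the mixture as alone is not known here. Nothing in the labels says whether the 3 replicates of a group came from separate animals or cultures, so the p-values measure the spread between these samples, which may be technical. In bulk samples, fewer cells of a type and less RNA per cell cannot be told apart.

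These cytokines reach the genome by a few shared routes. IFNg acts through JAK kinases and STAT dimers that bind GAS elements, IFNa through a STAT and IRF9 complex that binds ISRE elements, IL-6 mainly through STAT3, which also binds GAS-like elements, and TNFa through the IKK kinases and NF-kappaB. Each route also induces its own brakes, such as SOCS proteins for the JAK-STAT routes and IkappaB proteins for NF-kappaB, and in microglia the routes together switch cells from surveillance to chemokine release, antigen display and antimicrobial activity.

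Additivity depends on the scale on which responses are added. The contrast used here adds log2 fold changes: the mixture's log2 fold change against unstimulated cells minus the sum of the log2 fold changes of the 4 single cytokines, so that a value of 0 means that folds multiply. A positive contrast places a gene above the sum and a negative one below it. Levels are CPM (read counts scaled to a library total of 1000000, adjusted between libraries by TMM), and where increments of CPM are added instead, the text says the linear scale. The unstimulated libraries enter the contrast with a weight of 3 and its standard error (SE) had a median of 0.54 on the log2 scale over the 10104 genes averaging 2 or more in log2 CPM, against 0.21 for the mixture against unstimulated cells. In counts simulated for this contrast (14311 genes tested), 28% of deviations of size 2 and 76% of size 4 on the log2 scale were recovered, so smaller deviations were often not detectable with 3 replicates.

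Library totals ran from 10084927 to 19316994 counts. The 10 microglial marker genes (among them Csf1r, P2ry12 and Tmem119) summed to 7665 to 10819 CPM in every library, and border macrophage markers to 1615 to 3465 CPM. Single members need not follow the sum: Cx3cr1, a microglial marker, was at 916 ± 91.1 CPM unstimulated, 134 ± 10.0 with IFNg and 169 ± 101 with the mixture. Some marker lists of other cells moved with the groups. Over 12 T cell markers the sum was 36.5 to 82.3 CPM in the mixture and 8.23 to 33.4 CPM elsewhere, with Cd8a at 0 in all 18 libraries. The 9 NK cell markers gave 53.4 to 133 CPM in the mixture, 32.9 to 89.1 with IFNg, 43.4 to 64.9 with IFNa and at most 14.2 elsewhere, with Klra8 at 0. Only 3 of the T cell markers and 1 of the NK cell markers passed the filter on low counts. Cd28, in the T cell list, went the other way, from 18.5 ± 3.71 CPM unstimulated to 2.12 ± 1.13 with the mixture. Endothelial markers gave 156 to 215 CPM in the mixture, 172 to 214 with IFNa and at most 109 elsewhere. Oligodendrocyte markers gave 304 to 404 CPM in the mixture, 288 to 363 with IFNa, 166 to 247 with IFNg and 98.6 to 152 unstimulated. Monocyte markers gave 167 to 302 CPM in the mixture, 170 to 192 with IFNg, 148 to 264 with TNFa, 140 to 163 with IFNa and 49.3 to 76.8 unstimulated. Other lists varied widely within groups. Astrocyte markers gave 39.6 to 340 CPM unstimulated and 59.6 to 422 in the mixture, and mural cell or fibroblast markers 48.8 to 293 with IL-6. The part of these cells in the results was not tested. Mixture replicate 2 stood apart from the other mixture libraries in some genes that respond to IFNg. In others it was the highest, with 3535 CPM of Cxcl10 against 3418 and 2795, and 560 CPM of Ccl12 against 423 and 321. IFNa replicate 3 was low in some interferon-induced genes (Cxcl10 at 197 CPM against 616 and 907). Both were observed after the values were seen. Mixture replicate 2 held 418 CPM of Irf1 against 1281 and 1356, 92.2 CPM of Socs1 against 515 and 394, 657 CPM of Cxcl9 against 2376 and 1977, and 285 CPM of Cx3cr1 against 110.2 and 111. Without it, 86 genes were above and 143 below the sum, against 78 and 167 with it.

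Of 14626 genes tested, 78 were above the sum (0.533% of those tested) and 167 below it (1.14%), 1.68% in either direction, at an adjusted p under 0.05 with edgeR's quasi-likelihood test, and 1576 had an unadjusted p under 0.05. All 78 genes above the sum had a negative sum, and all 167 below it had a positive one. Both the sum and the contrast hold the single-cytokine libraries with opposite sign, so this split is partly tied by construction. In most of them the mixture moved in the same direction as the sum but by less: the mixture's log2 fold change was a median of 42.2% of the sum in the 167 genes and 34.9% in the 78. Among the 167 genes below the sum, the mixture lay above the highest single cytokine in 83, within the range of the singles in 59 and below the lowest in 25, counted on fitted values with no test. Among the 78 genes above it, it lay below the lowest single cytokine in 33, within their range in 36 and above the highest in 9. Over all genes tested the median contrast was -0.02.

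With the replicate number as a block in the fit, 323 genes (2.21%) were above and 637 (4.36%) below the sum, and 244 of the 245 genes called without the block were among them. The counts also moved with single unstimulated libraries: without unstimulated replicate 2, 23 genes were above and 53 below the sum. Without unstimulated replicate 3 these counts were 31 and 95, and without unstimulated replicate 1 the count below was 60. Against unstimulated cells, the shares of genes tested that were higher and lower were 8.57% and 4.32% with IFNg, 0.745% and 0.232% with IL-6, 9.41% and 5.07% with IFNa, 4.38% and 3.72% with TNFa, and 15.7% and 16.4% with the mixture. All of these comparisons and the contrast share the unstimulated libraries.

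**Figure D1:**
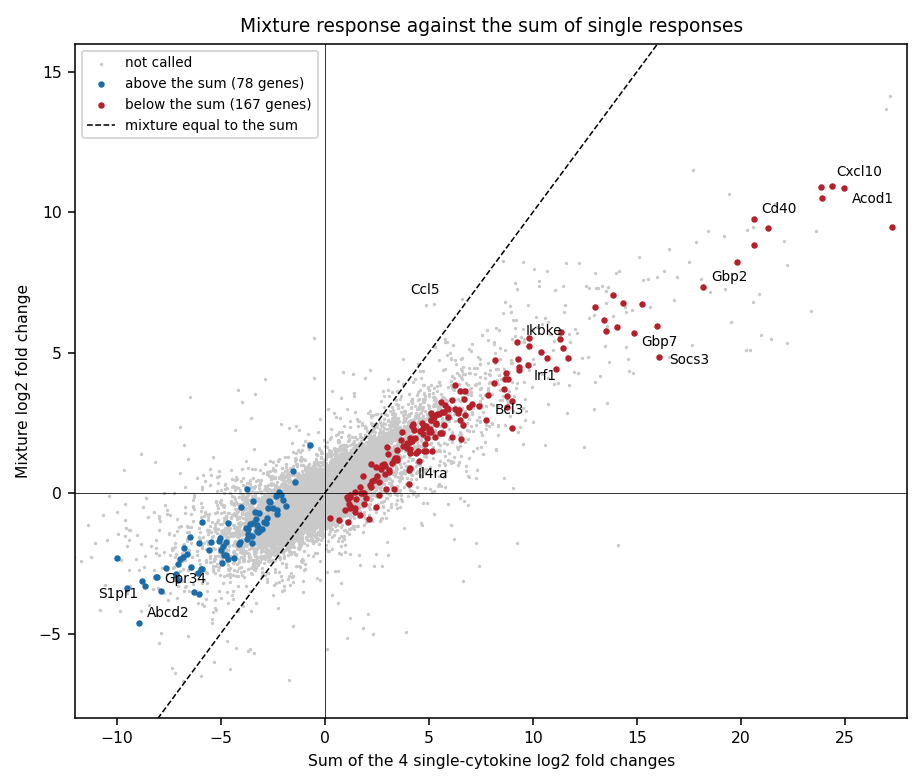
Each point is 1 of 14626 genes: the sum of the 4 single-cytokine log2 fold changes (x axis) and the mixture's log2 fold change (y axis), both against unstimulated cells, with the dashed line where they are equal. The 78 genes above the sum (blue) lie left of 0 and the 167 below it (red) lie right of 0, with Acod1 at a sum of 24.97 and a mixture value of 10.87.

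Promoter sequences are shown for 4 of the genes below the sum because they stand for different input routes: Gbp5 (a guanylate-binding protein of antimicrobial defence, induced by both interferons), Cxcl10 (a T cell attracting chemokine), Socs3 (the brake on IL-6 signalling) and Nfkbia (IkappaB alpha, the brake on NF-kappaB). The stretches are the 250 bases before the RefSeq start site, on build GRCm38.p6 (mm10), 5′ to 3′ on the gene's strand: Gbp5 at chr3:142496684-142496933 on the plus strand, Cxcl10 at chr5:92348890-92349139, Socs3 at chr11:117969367-117969616 and Nfkbia at chr12:55492648-55492897, the last 3 on the minus strand. Capitals mark matches to the GAS core (TTCNNNGAA), the ISRE core (GAAA, then 2 bases of any kind, then GAAA) or an NF-kappaB motif (GGGA, 1 base of any kind, TT, 1 base of any kind, CC), searched on both strands.
Gbp5: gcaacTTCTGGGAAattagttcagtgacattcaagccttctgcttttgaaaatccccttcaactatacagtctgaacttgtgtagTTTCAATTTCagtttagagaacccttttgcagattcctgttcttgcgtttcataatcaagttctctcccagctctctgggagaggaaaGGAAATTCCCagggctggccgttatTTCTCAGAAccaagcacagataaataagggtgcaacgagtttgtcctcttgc
Cxcl10: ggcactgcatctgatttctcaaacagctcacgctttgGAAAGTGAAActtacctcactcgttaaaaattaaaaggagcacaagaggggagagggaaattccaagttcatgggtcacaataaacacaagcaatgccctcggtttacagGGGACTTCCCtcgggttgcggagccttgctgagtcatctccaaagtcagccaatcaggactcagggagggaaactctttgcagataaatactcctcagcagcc
Socs3: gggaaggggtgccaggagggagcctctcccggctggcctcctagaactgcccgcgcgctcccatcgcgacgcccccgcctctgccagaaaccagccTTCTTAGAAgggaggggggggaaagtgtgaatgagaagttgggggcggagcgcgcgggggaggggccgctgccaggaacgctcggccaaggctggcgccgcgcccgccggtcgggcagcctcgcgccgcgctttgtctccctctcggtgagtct
Nfkbia: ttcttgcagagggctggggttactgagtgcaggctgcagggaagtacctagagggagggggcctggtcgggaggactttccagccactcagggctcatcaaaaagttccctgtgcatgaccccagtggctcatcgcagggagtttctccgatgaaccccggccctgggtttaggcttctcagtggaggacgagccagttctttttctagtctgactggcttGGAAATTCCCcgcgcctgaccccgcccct
No 2 matches overlap in these stretches. Those of Gbp5 and Socs3 lie inside the GENCODE bounds of these genes given below, so the outermost GENCODE start is not the RefSeq one used here. Gbp5 held matches to all 3 motifs, Cxcl10 to the ISRE core and the NF-kappaB motif, Socs3 to the GAS core and Nfkbia to the NF-kappaB motif. Of the 29 genes named below that were called below the sum, 20 had RefSeq promoters of 300 bases in the table, 25 promoters in all, of which 24% held the GAS core, 16% the ISRE core and 16% the NF-kappaB motif. Over all 32851 promoters of the same length these shares were 8.3%, 3.44% and 1.2%. Many of the named genes came from a preset pathway set or from lists of interferon, STAT3 and NF-kappaB genes. Higher shares could follow from that choice alone, and they do not describe all genes called below the sum. For the 12 named genes above the sum, 7 were matched and 1 of 13 promoters, that of Slc46a3, held a GAS core and 0 held either other motif. A match is a description of letters and not of binding.

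Acod1, Cxcl10 and Cd40 were among the genes farthest below the log2 sum and lay above the sum on the linear scale. Acod1 encodes the enzyme that makes itaconate in activated macrophages (chr14:103046977-103056573, mm10). It was at 1.94, 0.664 and 3.32 CPM unstimulated, 604, 749 and 759 with IFNg, 4.15, 3.39 and 9.84 with IL-6, 210.4, 299 and 98.2 with IFNa, 391, 524 and 943 with TNFa and 3475, 3484 and 4246 with the mixture. All mixture libraries were higher than every single-cytokine library, and the IL-6 libraries, the lowest of the stimulated ones, were all above the unstimulated libraries. The contrast was -14.10 (SE 1.68, adjusted p = 0.000586). The single log2 fold changes of 8.46, 1.56, 6.67 and 8.28 for IFNg, IL-6, IFNa and TNFa summed to 24.97 and the mixture reached 10.87. On the linear scale the mixture exceeded the sum of increments by 2209 ± 273 CPM (SD over the 3 replicate numbers), or 2.45 times the level that the increments add up to.

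Cxcl10 (chr5:92346638-92348889), whose promoter is printed above, was at 1.03, 0.845 and 2.98 CPM unstimulated, 589.7, 886 and 629.8 with IFNg, 1.67, 0.846 and 3.86 with IL-6, 616, 907 and 197 with IFNa, 66.3, 100.2 and 383 with TNFa and 3418, 3535 and 2795 with the mixture. IFNa replicate 3 was low and TNFa replicate 3 high within their groups, and the mixture libraries were all above every single-cytokine library. The test of the mixture above every single cytokine did not pass, however (adjusted p = 0.181). The contrast of Cxcl10 was -13.45 (SE 2.31, adjusted p = 0.00829), while on the linear scale the mixture was 2.23 times the summed level. The call for Cxcl10 was lost without unstimulated replicate 1 or 2 (adjusted p = 0.056 and 0.0764). For Cd40, the co-stimulatory receptor through which T cells activate myeloid cells (chr2:165055627-165072948), the values were 0.194, 0.845 and 0.956 CPM unstimulated, 81.1, 100.4 and 77.4 with IFNg, 2.93, 1.88 and 2.47 with IL-6, 48.6, 55.0 and 24.3 with IFNa, 27.0, 36.8 and 52.5 with TNFa and 661, 504 and 616 with the mixture. No library of another group reached the lowest mixture library. The contrast of Cd40 was -10.86 (SE 1.21, adjusted p = 0.000378), the mixture was 3.53 times the linear sum, and it was also called above every single cytokine (adjusted p = 0.000353), by 6.88-fold over IFNg, the highest of them. In 8 of the 167 genes (Acod1, Cxcl10, Cd40, Ccl12, Cd69, Gbp2, Gbp5 and Iigp1), the level at the log2 sum is over 1000000 CPM, more than a library can hold.

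Cd69, an early activation receptor, and the CCR2 ligands Ccl12 and Ccl2 were also below the log2 sum. Their contrasts were -11.86 (adjusted p = 0.00487), -11.78 (adjusted p = 0.00176) and -5.79 (adjusted p = 0.0106), and their mixture levels were 595 ± 187, 434 ± 119.8 and 368 ± 49.7 CPM (SD, n = 3), against 0.842 ± 0.603, 0.914 ± 0.718 and 8.06 ± 3.35 unstimulated. On the linear scale the mixture was 2.11, 1.78 and 1.30 times the sum, and above it in 3, 3 and 2 of the 3 replicate numbers. Ccl2 and Ccl12 are close in sequence, so reads could be split between them. In all, 12 of the 167 genes below the log2 sum were above the linear sum in each of the 3 replicate numbers: Acod1, Cxcl10, Cd40, Cd69, Ccl12, Ikbke, Slc2a6, Scimp, Mmp25, Abtb2, Stx11 and Lacc1, with mixture levels from 1.11 (Ikbke) to 3.53 times (Cd40) the summed level. A further 128 were below the linear sum in all 3 numbers, and 27 were mixed. Over all 14626 genes tested, 3067 were above and 3558 below the linear sum in all 3 numbers. With limma-voom in place of edgeR, the contrasts of Cxcl10, Cd40, Cd69 and Ccl12 kept their sign and had adjusted p of 0.218, 0.0823, 0.306 and 0.169.

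**Figure D2:**
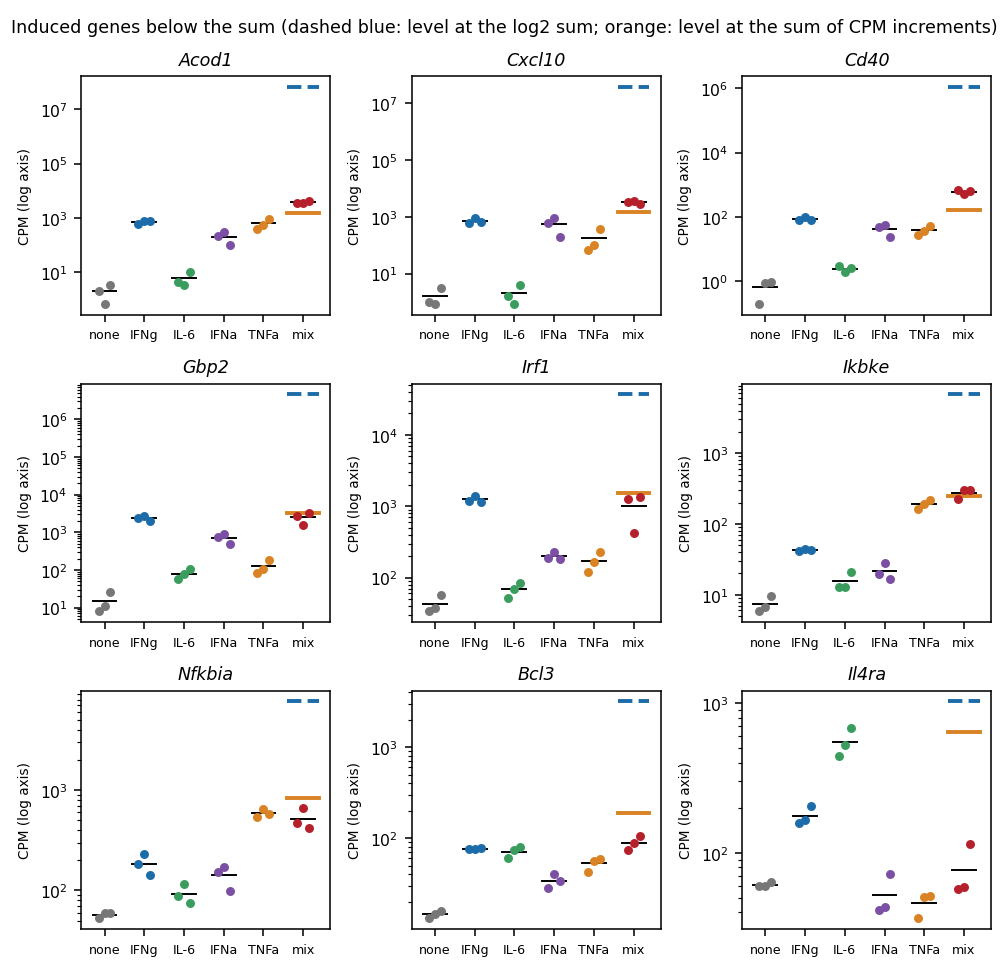
CPM on a log axis in each of the 18 libraries (points, 3 per group) with the group mean (black line) for 9 genes below the log2 sum. The dashed blue line marks the level at the log2 sum and the orange line the level at the sum of CPM increments: the mixture of Acod1, Cxcl10 and Cd40 lies between them, and that of Bcl3, Nfkbia and Il4ra lies under both.

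Guanylate-binding proteins and the related Iigp1, GTPases that attack the vacuoles of intracellular microbes, were among the genes farthest below the sum. Of 16 interferon-inducible GTPase genes tested, 0 were above and 5 below the sum, namely Gbp2, Gbp3, Gbp5, Gbp7 and Iigp1. With the replicate block 8 were below it. Over all genes tested the share below was 1.14%, or 4.36% with the block. The median contrast of the 16 genes was -7.97, against -0.02 over all genes tested. Gbp2 (chr3:142620602-142638008) was at 8.07, 11.3 and 26.6 CPM unstimulated, 2335, 2734 and 1930.1 with IFNg, 56.0, 76.4 and 107 with IL-6, 767, 881 and 495 with IFNa, 85.2, 107 and 183 with TNFa and 2684, 1534 and 3244 with the mixture. The IFNg and mixture libraries overlapped, and mixture replicate 2 was the lowest of both groups. The contrast of Gbp2 was -10.85 (SE 1.33, adjusted p = 0.000593), or -10.55 (adjusted p = 0.000566) without that library, and its mixture level was 1.07 times that with IFNg. Gbp5 (chr3:142493978-142522344), whose promoter matched all 3 motifs, was at 439.9 ± 59.1 CPM with IFNg, 326 ± 114 with IFNa, 50.4 ± 29.1 with TNFa and 895 ± 91.4 with the mixture (SD, n = 3), a contrast of -11.58 (SE 1.51, adjusted p = 0.000957). Gbp7 had a contrast of -10.01 (adjusted p = 0.00268) and a mixture level 1.03 times that with IFNg. For Iigp1 the contrast was -13.37 (SE 2.83, adjusted p = 0.0275), with mixture libraries at 1024, 295 and 1075 CPM and IFNg libraries at 946, 1076 and 961 CPM; without mixture replicate 2, the low one, the contrast was -12.90 (adjusted p = 0.0262). Its call was lost with limma-voom (adjusted p = 0.466) and when no filter on low counts was used (adjusted p = 0.088). Guanylate-binding proteins are near-identical in places, so reads may be split between them.

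Irf1 (chr11:53770014-53778374), the IFNg-induced activator of many of these genes, was at 34.0, 37.3 and 57.4 CPM unstimulated, 1199, 1385 and 1155 with IFNg, 186, 227 and 184 with IFNa, 122, 167 and 231 with TNFa and 1281, 418 and 1356 with the mixture. Mixture replicates 1 and 3 lay within the IFNg range and replicate 2 far under it. Its contrast was -5.19 (SE 1.01, adjusted p = 0.0141), and without mixture replicate 2 it was -4.75 (adjusted p = 0.00136). It was lost without unstimulated replicate 1 or 2 (adjusted p = 0.0954 and 0.114). Nlrc5, the transactivator of MHC class I genes, and Tapbpl, a peptide editor of MHC class I, had contrasts of -5.86 (adjusted p = 0.0421) and -4.35 (adjusted p = 0.00176). They were the 2 genes below the sum among 21 MHC class I and peptide loading genes, of which 0 were above it (10 below with the replicate block). Over all genes tested the share below was 1.14%, or 4.36% with the block. Nlrc5 passed by a narrow margin and lost its call in 14 of the 18 fits that leave out 1 library. Ciita, the master activator of MHC class II genes, is given by its levels because the IFNa group held 0 reads: 17.9, 15.6 and 10.21 CPM with IFNg and 5.65, 0.146 and 5.42 with the mixture, the low value being replicate 2, and at most 0.557 CPM in any library of the other groups. None of the 12 MHC class II genes was called in either direction.

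Of 35 type I interferon-stimulated genes tested, 0 were above and 1 below the sum (2 with the replicate block), the antiviral ADP-ribosyltransferase gene Parp14 (contrast -2.96, adjusted p = 0.031), a share near the 1.14% of all genes tested that were below it. Their median contrast was -1.43, with a median mixture log2 fold change of 2.30 against a median sum of 3.77. Usp18, which removes ISG15 and blocks the IFNa receptor, was at 49.4, 56.2 and 120.4 CPM unstimulated, 964, 1078 and 616 with IFNa and 1136, 1275 and 1094 with the mixture, while IFNg, IL-6 and TNFa libraries lay between 23.1 and 238 CPM. Mixture and IFNa libraries were both above all others, and the mixture libraries were above every IFNa library. The contrast of Usp18 was -0.28 with an SE of 1.41 (adjusted p = 0.991), too wide to place it on either side of the sum.

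Among the brakes of these routes, Socs3 and Nfkbia were below the sum, and Socs1 and Tnfaip3 did not pass the test. Socs3 (chr11:117966079-117970047) was at 7.49, 0.845 and 2.08 CPM unstimulated, 149, 172 and 108 with IFNg, 167, 205 and 167 with IL-6, 11.8, 9.85 and 3.82 with IFNa, 43.4, 48.6 and 39.4 with TNFa and 77.9, 95.3 and 128 with the mixture. Every mixture library was under every IL-6 library, and the mixture overlapped only the IFNg group among the stimulated groups. The contrast of Socs3 was -11.201 (SE 1.60, adjusted p = 0.00218), and the mixture stood at 0.275 of the level at the linear sum. Nfkbia (chr12:55489410-55492647) was at 52.9, 59.0 and 59.7 CPM unstimulated, 184, 229 and 142 with IFNg, 545, 649 and 582 with TNFa and 468, 659 and 415 with the mixture. Its mixture and TNFa libraries overlapped, and its contrast was -3.90 (SE 0.65, adjusted p = 0.0049). Socs1, the main brake on IFNg signalling, had a contrast of -6.29 (adjusted p = 0.136), with mixture libraries at 515, 92.2 and 394 CPM and IFNg libraries at 389, 477 and 329 CPM. DESeq2 called it (adjusted p = 0.00905). Tnfaip3, the ubiquitin-editing brake on NF-kappaB, was at 280.1 ± 39.1 CPM in the mixture, 1.02 times its linear sum and above it in 1 of the 3 replicate numbers (contrast -1.25, adjusted p = 0.419). Among 14 other JAK-STAT feedback inhibitor genes (Socs3 was counted with the STAT3 targets), 1 was above the sum, Socs6 (contrast 2.52, adjusted p = 0.000586), whose 4 single log2 fold changes were all negative, and 0 were below it (2 with the replicate block). Over all genes tested the shares were 0.533% above and 1.14% below.

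NF-kappaB genes held the largest number of calls of any list. Of 28 NF-kappaB targets and feedback genes, 12 were below the sum (15 with the replicate block) and 0 above it, with a median contrast of -1.83. Over all genes tested the share below was 1.14%, or 4.36% with the block. Bcl3, an IkappaB family cofactor of NF-kappaB (chr7:19808462-19822770), was at 13.2, 14.5 and 15.9 CPM unstimulated, 75.3, 76.0 and 77.8 with IFNg, 59.9, 73.9 and 80.3 with IL-6, 28.1, 40.3 and 33.7 with IFNa, 42.6, 56.8 and 59.3 with TNFa and 74.8, 87.8 and 106 with the mixture. All 4 cytokines alone raised it (adjusted p at most 0.000146), and the mixture libraries overlapped those of IFNg and IL-6. The contrast of Bcl3 was -5.15 (SE 0.49, adjusted p = 0.000209) and was called in all 18 fits that leave out 1 library; the mixture was at 0.469 of its linear sum. Birc3, an inhibitor of apoptosis, was at 163 ± 36.2 CPM with TNFa and 159.9 ± 11.18 with the mixture (SD, n = 3), a contrast of -4.36 (adjusted p = 0.000857). Icosl, a ligand for T cell co-stimulation, was at 54.1, 78.1 and 45.7 CPM with TNFa and 19.7, 49.1 and 20.2 with the mixture, which overlap only through mixture replicate 2, a contrast of -4.62 (adjusted p = 0.0119), or -5.11 (adjusted p = 0.000522) without that library. The adhesion molecule gene Icam1 had mixture libraries at 1584, 1236 and 1739 CPM, all above the highest IFNg or TNFa library (904 CPM), and a contrast of -6.29 (adjusted p = 0.000428). On the linear scale its mean was at 0.914 of the sum, with a difference of 26.5, -730.1 and 273 CPM in replicate numbers 1, 2 and 3, so that number 2 alone was under it.

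Ikbke encodes IKK epsilon, a kinase of the TBK1 family that acts in interferon and NF-kappaB signalling (chr1:131254343-131279606). It was at 5.87, 6.64 and 9.67 CPM unstimulated, 41.7, 44.4 and 42.8 with IFNg, 13.1, 12.9 and 20.9 with IL-6, 19.7, 28.1 and 16.6 with IFNa, 162, 194 and 221 with TNFa and 229, 304 and 301 with the mixture. The TNFa and mixture libraries were above all others, and the lowest mixture library was above the highest TNFa library. Its contrast was -4.62 (SE 0.67, adjusted p = 0.00178): the singles summed to 9.84, of which TNFa gave 4.70, and the mixture reached 5.23. On the linear scale the mixture exceeded the summed increments by 27.6 ± 17.7 CPM, 1.11 times the summed level. The mixture was 1.44-fold over TNFa, and the test of the mixture above every single cytokine did not pass (adjusted p = 0.553). Of 24 genes of the TBK1 and IKK epsilon axis, 3 were below the sum, Ikbke, the adaptor gene Tank (contrast -2.22, adjusted p = 0.0467) and Tmem173, which encodes STING (contrast -3.57, adjusted p = 0.0479), and 0 were above (6 below with the replicate block). Over all genes tested the share below was 1.14%, or 4.36% with the block. Tank and Tmem173 passed narrowly, losing their calls in 15 and 13 of the 18 fits that leave out 1 library. Tank was at 1.01 times its linear sum, above it in 1 of the 3 replicate numbers.

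The STAT3 targets held a gene that the mixture left near its starting level. Il4ra, the receptor chain for IL-4 and IL-13 (chr7:125552120-125579474), was at 59.7, 59.9 and 63.7 CPM unstimulated, 159, 166 and 204 with IFNg, 440.0, 523 and 681 with IL-6, 41.4, 43.5 and 72.4 with IFNa, 36.6, 50.6 and 51.3 with TNFa and 56.9, 59.1 and 115 with the mixture. The IL-6 libraries were the highest and the IFNg libraries next, while mixture replicates 1 and 2 lay just under the unstimulated range and replicate 3 above it. IL-6 alone raised Il4ra 8.97-fold (adjusted p = 3.3e-05) and IFNg alone 2.89-fold (adjusted p = 0.00113), and the mixture's log2 fold change was 0.33 (adjusted p = 0.405). The contrast was -3.74 (SE 0.75, adjusted p = 0.017), and the mixture was at 0.120 of the linear sum. Without any 1 of the unstimulated libraries the adjusted p of Il4ra was 0.0902, 0.112 or 0.0678. Pim1, a survival kinase, had a contrast of -4.83 (adjusted p = 0.00392) but lay at 1.09 times its linear sum, above it in 2 of the 3 replicate numbers. Of 21 genes of STAT3 and IL-6 signalling, 6 were below the sum (Cebpb, Il4ra, Junb, Pim1, Socs3 and Stat3; 11 with the replicate block) and 0 above. The share below over all genes tested was 1.14%, or 4.36% with the block. Stat3 itself was at 260.2, 312 and 311 CPM with IL-6, 440.1, 439.7 and 380.2 with IFNg and 483, 382 and 525 with the mixture (contrast -2.75, adjusted p = 0.00243).

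Junb and Zfp36 were the 2 genes below the sum among 23 immediate early genes, of which 0 were above it. With the replicate block 3 were below it. The share below over all genes tested was 1.14%, or 4.36% with the block. Junb, an AP-1 transcription factor, had a contrast of -2.82 (adjusted p = 0.0049) and Zfp36, which destabilises cytokine mRNAs, one of -2.35 (adjusted p = 0.0179). Their mixture levels were 832 ± 156 and 447 ± 66.1 CPM, at 0.755 and 0.693 of the linear sum.

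Of 24 cytokine and chemokine genes tested, 2 were below the sum, Ccl2 and Ccl12, and 0 above, with a median contrast of -2.51. With the replicate block 6 were below it. The share below over all genes tested was 1.14%, or 4.36% with the block. Tnf was at 117, 143 and 44.8 CPM with IFNg, 78.0, 98.2 and 28.6 with TNFa and 203, 203 and 82.6 with the mixture; replicate 3 was the lowest in each of these groups. Its contrast was -6.76 (SE 1.67, adjusted p = 0.0599), and -6.37 with the replicate block (adjusted p = 0.000331). Il1b was at 94.7, 105 and 57.4 CPM with TNFa and 19.3, 52.7 and 10.6 with the mixture, with every mixture library under every TNFa library. The contrast of Il1b was -6.24 (adjusted p = 0.158) and, with the block, -6.56 (adjusted p = 0.000211). Cxcl9, an IFNg-induced chemokine, was at 451, 575 and 233 CPM with IFNg and 2376, 657 and 1977 with the mixture, the low value being replicate 2 (contrast -13.29, adjusted p = 0.103, and 0.000486 with DESeq2). Il6, with 0 reads in unstimulated cells, was at 8.77, 4.37 and 1.88 CPM with the mixture and at most 0.865 CPM in any single-cytokine library, the IL-6 group included.

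Genes above the sum were, with few exceptions, genes with negative log2 fold changes for the single cytokines and a less negative one for the mixture than their sum. All 4 single log2 fold changes were negative in 73 of the 78, and in 73 the sum of CPM decreases exceeded the starting level, so that the linear sum was under 0 and no level could reach it. Gpr34, a lysophosphatidylserine receptor of resting microglia (chrX:13632089-13640858), was at 95.6, 114 and 104 CPM unstimulated, 16.33, 16.6 and 25.5 with IFNg, 53.8, 49.5 and 49.9 with IL-6, 14.6, 18.4 and 27.7 with IFNa, 18.4, 20.0 and 27.4 with TNFa and 8.62, 12.03 and 19.2 with the mixture. All stimulated libraries were under all unstimulated ones, and the mixture libraries overlapped those of IFNg, IFNa and TNFa. Its contrast was 5.102 (SE 0.67, adjusted p = 0.000857). Gpr34 was the only one of 20 homeostatic microglial genes above the sum (3 with the replicate block), and 0 were below it. Over all genes tested the share above was 0.533%, or 2.21% with the block. Cx3cr1, the fractalkine receptor, was at 811, 959 and 977 CPM unstimulated, 145, 125 and 131 with IFNg and 110.2, 285 and 111 with the mixture (contrast 2.25, adjusted p = 0.215). P2ry12, the ADP receptor of surveying microglia, was at 4.09, 6.06 and 8.67 CPM with TNFa and 47.3, 44.5 and 59.8 with the mixture, which lay near the IFNa libraries (42.8, 60.2 and 55.0 CPM; contrast 0.85, adjusted p = 0.749).

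S1pr1, the sphingosine 1-phosphate receptor (chr3:115710433-115715072), was at 163 ± 27.9 CPM unstimulated, 10.6 ± 3.90 with IFNg, 117 ± 6.32 with IL-6, 29.5 ± 7.95 with IFNa, 47.8 ± 9.23 with TNFa and 28.2, 12.8 and 8.06 in the 3 mixture libraries (means ± SD, n = 3). The libraries of IFNg and the mixture were the lowest and overlapped, and those of IL-6 lay just under the unstimulated range. The contrast of S1pr1 was 5.33 (SE 0.88, adjusted p = 0.00499). Slc46a3, a lysosomal transporter (chr5:147878437-147894815), was lowest with TNFa alone: 18.8, 29.3 and 25.2 CPM unstimulated, 2.14, 2.64 and 2.30 with TNFa and 7.13, 9.62 and 8.34 with the mixture. Each mixture library was over each TNFa library, by 3.54-fold on the fitted scale, and the contrast was 4.92 (SE 0.51, adjusted p = 0.000217). Abcd2, a peroxisomal fatty acid transporter, lay lowest in the mixture: 104, 132 and 115 CPM unstimulated, 13.2, 17.9 and 14.9 with IFNg, 17.0, 19.1 and 19.4 with TNFa and 3.71, 7.36 and 3.33 with the mixture. It was below every single cytokine (adjusted p = 0.00345) and still above the log2 sum by 4.30 (SE 0.54, adjusted p = 0.000593).

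The 10 largest contrasts above the sum were taken among genes that met the level and read cuts for naming. The others of these 10 lay between 4.58 (Rnf150) and 6.17 (Fam214a), and the largest contrast of all 78 genes was 7.69. St6gal1, a sialyltransferase, was at 127 ± 22.2 CPM unstimulated, 20.5 ± 4.80 with TNFa and 20.0 ± 7.08 with the mixture (contrast 4.96, adjusted p = 0.000586). Hpgd, which degrades prostaglandins, was at 361 ± 45.0, 76.1 ± 12.8 and 92.7 ± 45.8 CPM in the same groups (contrast 4.82, adjusted p = 0.0049). Hdac9, a class II histone deacetylase, was at 28.5 ± 2.51 CPM unstimulated and 14.04 ± 8.86 with the mixture, with mixture replicate 3 high (contrast 4.87, adjusted p = 0.0091). Epor, the erythropoietin receptor, was above the sum with an adjusted p of 0.031, with mixture libraries at 1.04, 2.19 and 1.32 CPM and unstimulated ones at 10.5, 13.5 and 12.6 CPM. Cd28, also in the T cell marker list, was at 18.5 ± 3.71 CPM unstimulated and 2.12 ± 1.13 with the mixture (contrast 5.66, adjusted p = 0.00417). Only 5 of the 78 genes had a mixture level over unstimulated cells, and Inpp1 and Ift140 were called higher in that comparison, in which 15.7% of genes tested were. Inpp1, an inositol phosphatase, was at 8.91, 10.3 and 9.67 CPM unstimulated, 23.3, 27.7 and 22.1 with IFNa, 3.09, 3.87 and 2.89 with TNFa and 27.8, 25.4 and 41.8 with the mixture (contrast 2.44, adjusted p = 0.0319).

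**Figure D3:**
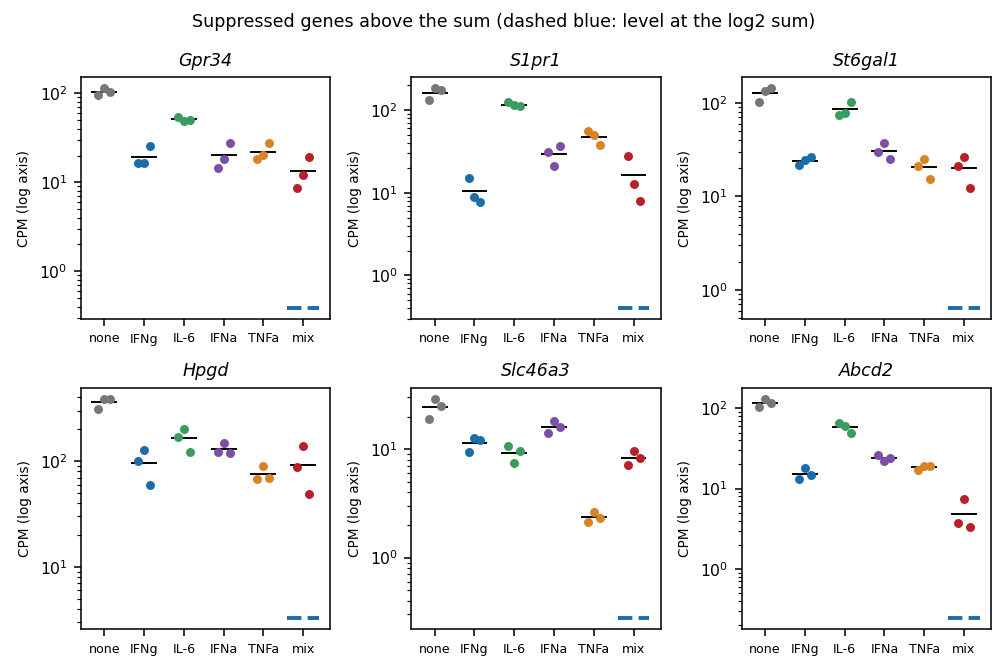
CPM on a log axis in each of the 18 libraries (points) with group means (black lines) for 6 genes above the log2 sum; the dashed blue line is the level at the log2 sum. In all 6 the mixture lies over that line, within the range of single cytokines for Slc46a3 and under every single cytokine for Abcd2.

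A separate test asked where the mixture lay beyond every single cytokine, which the additive contrast does not answer. By the largest of 4 one-sided p-values from the same fit, adjusted over all genes, 92 genes (0.629%) were above all 4 cytokines and 92 (0.629%) below all 4. With the replicate block these counts were 358 (2.45%) and 414 (2.83%). This split depends on scaling: it was 138 above and 58 below with RLE size factors, and 44 above and 1105 below with total counts only, under which the median mixture log2 fold change of all genes was -0.47, against -0.05 with TMM. Of the 92 above all cytokines, 18 were below the log2 sum and 1 above it, where 1.14% and 0.533% of all genes tested were. Both tests use the same mixture and single-cytokine libraries, so this overlap is not independent. The split of 92 and 92 also moved with single libraries, to 59 and 23 without mixture replicate 3, 117 and 61 without mixture replicate 2, and 41 above without IFNa replicate 1. The counts below all cytokines were 54 without mixture replicate 1, 55 without unstimulated or IFNa replicate 2, 51 and 50 without IFNg or TNFa replicate 1, 50 without TNFa replicate 2 and 35 without IFNa replicate 3. Those above were 53 and 60 without IFNg replicate 1 or 2.

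Ccl5, a chemokine for T cells and monocytes (chr11:83525778-83530518), was at 4.91, 3.44 and 6.47 CPM unstimulated, 8.19, 14.01 and 13.9 with IFNg, 4.55, 3.48 and 10.6 with IL-6, 15.35, 15.8 and 13.4 with IFNa, 9.70, 15.27 and 21.2 with TNFa and 532, 689 and 309 with the mixture. No single cytokine brought it over 21.2 CPM, and all mixture libraries were at least 309 CPM. It was above every single cytokine (adjusted p = 3.2e-05), 33.1-fold over TNFa, and 15.1 times its linear sum; the log2 contrast was 1.84 with an SE of 1.08 (adjusted p = 0.622). Nos2, the inducible nitric oxide synthase, had 0 reads in unstimulated cells and was at 0.843, 1.51 and 5.04 CPM with IFNg, 1.78, 3.13 and 1.91 with IFNa, 0.571, 0.580 and 2.19 with TNFa and 131, 70.8 and 226 with the mixture. The lowest mixture library held more than 10 times the highest single-cytokine library, and Nos2 was called above every single cytokine (adjusted p = 0.00216). AW112010, an interferon-induced transcript of macrophages, was at 19.3 ± 5.79 CPM with IFNa and 249 ± 17.1 with the mixture, 6.001 times its linear sum (adjusted p above every single = 1.5e-05).

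Mxd1, a MAX partner that opposes MYC (chr6:86647042-86669161), was close to the log2 sum. It was at 8.33, 8.45 and 8.04 CPM unstimulated, 26.9, 24.9 and 31.0 with IFNg, 47.8, 61.6 and 24.9 with IFNa, 10.5, 10.8 and 22.3 with TNFa and 321, 273 and 322 with the mixture. Its contrast was -0.11 with an SE of 0.79, and it was above every single cytokine (adjusted p = 0.000185). Mtmr14, a phosphoinositide phosphatase, was at 336, 349 and 342 CPM with the mixture against 117, 125 and 129.6 with IFNg, its highest single (adjusted p = 0.000185, contrast -0.85). Xkr8, a lipid scramblase, was 3.48-fold over IFNg (adjusted p = 0.000185), with a contrast of -2.23 (adjusted p = 0.0592) that passed with the replicate block (adjusted p = 0.00867).

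On the low side, Rasgrp3, a Ras activator of immune cells (chr17:75435896-75529054), was at 123, 165 and 166 CPM unstimulated, 64.6, 65.5 and 56.4 with IFNg, 58.6, 49.4 and 49.4 with IL-6, 49.7, 61.5 and 74.2 with IFNa, 38.0, 44.9 and 33.5 with TNFa and 10.8, 12.5 and 14.7 with the mixture. Every mixture library was under every other library. It was below every single cytokine (adjusted p = 0.00082) and yet above the log2 sum with a contrast of 2.49 (SE 0.44, adjusted p = 0.00707). Cluh, which binds mRNAs of mitochondrial proteins, and Plekhh2 were below every single cytokine (adjusted p = 0.00345 and 0.00345) at 22.4 ± 1.39 and 4.06 ± 0.720 CPM, against 71.9 ± 6.06 and 36.0 ± 7.201 unstimulated. Dhx33, an RNA helicase of ribosomal RNA synthesis (chr11:70984091-71004437), was at 25.1, 24.7 and 23.3 CPM unstimulated, 21.2, 27.8 and 26.5 with IFNg, 27.98, 25.6 and 29.3 with IL-6, 23.9, 22.6 and 23.8 with IFNa, 31.8, 34.6 and 37.6 with TNFa and 12.9, 13.1 and 11.5 with the mixture. TNFa alone raised it and the mixture lowered it under every other library, a contrast of -1.64 (SE 0.33, adjusted p = 0.0173) and an adjusted p of 0.00345 for the mixture below every single cytokine. The additive call for Dhx33 was lost without any 1 of the unstimulated libraries (adjusted p = 0.0764 to 0.103) and with no filter on low counts (adjusted p = 0.103).

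**Figure D4:**
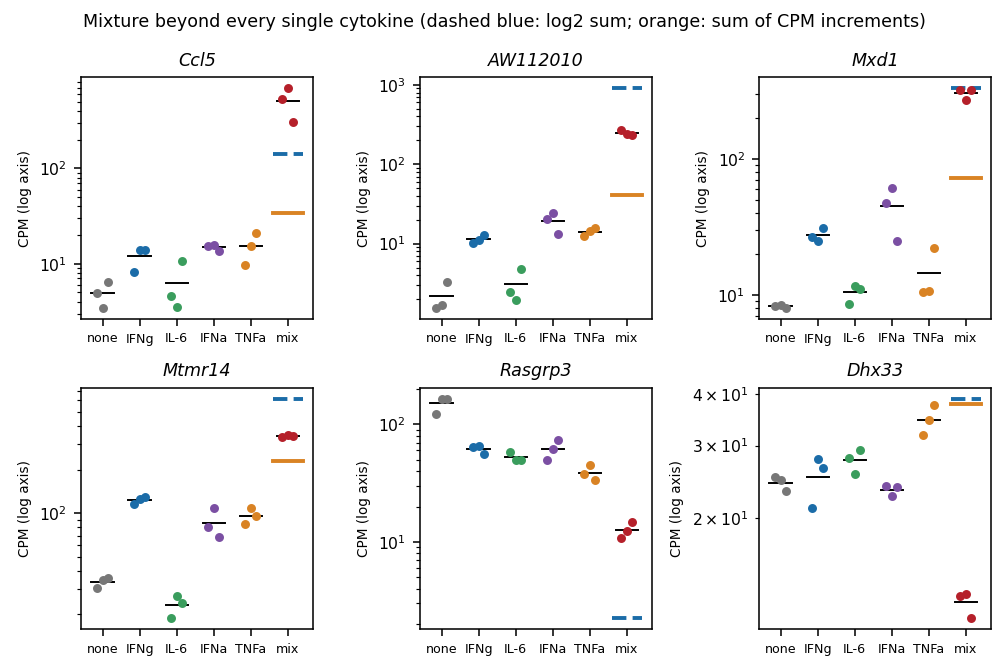
CPM on a log axis in each of the 18 libraries (points) with group means (black lines) for 6 genes whose mixture lies beyond every single cytokine; dashed blue is the level at the log2 sum and orange the level at the sum of CPM increments. The mixture of Ccl5 lies over both lines, that of Mxd1 at the log2 sum and that of Dhx33 under both.

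Fas, the gene that carries the lpr mutation in all of these cells, was low throughout: 1.29, 0.181 and 0.675 CPM unstimulated, 1.63, 2.06 and 2.004 with IFNg, 2.95, 2.19 and 2.03 with TNFa and 10.1, 4.88 and 7.85 with the mixture. All mixture libraries were above all others. The contrast of Fas was 2.60 with an SE of 2.37 (adjusted p = 0.829).

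Of 19 effector genes shared by IFNg and TNFa, 7 were below the sum (Acod1, Casp4, Cd274, Cd40, Cxcl10, Icam1 and Irf1), 0 above, and 6 lay above every single cytokine (Acod1, Ccl5, Cd40, Cxcl11, Il27 and Nos2). Over all genes tested these shares were 1.14%, 0.533% and 0.629%. None of 8 receptor genes of the applied cytokines, 21 complement and Fc receptor genes, 24 disease-associated microglial genes or 28 cell cycle genes was called, with median contrasts of 0.31, -0.62, 0.47 and 0.55. With the replicate block, 1 receptor gene and 3 complement and Fc receptor genes were below the sum, and 2 disease-associated genes and 1 cell cycle gene above it. One of 19 glycolytic genes was below the sum, the glucose transporter gene Slc2a1 (contrast -2.12, adjusted p = 0.0126), and 1 of 23 phagocytic and scavenger receptors above it, the integrin gene Itgb5 (contrast 1.91, adjusted p = 0.0293). With the block these counts were 2 and 6, in a fit that placed 4.36% of all genes tested below the sum and 2.21% above it.

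**Figure D5:**
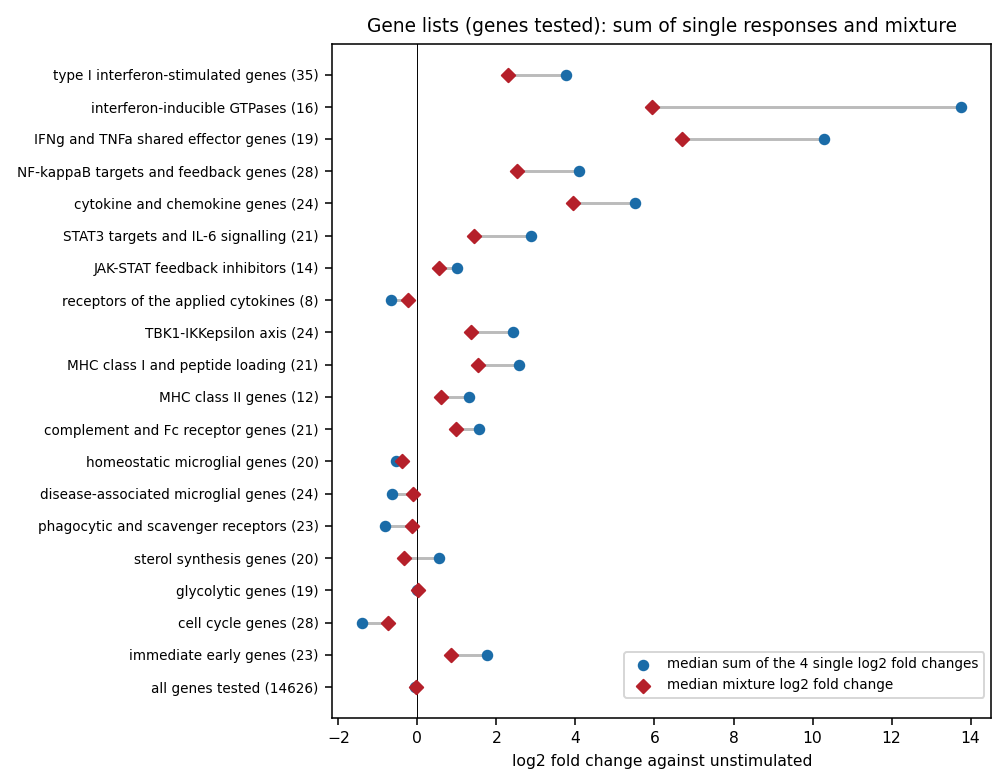
For each function list, with the number of genes tested in brackets, the median sum of the 4 single-cytokine log2 fold changes (blue circle) and the median mixture log2 fold change (red diamond), both against unstimulated cells. The gap is widest for the interferon-inducible GTPases (13.76 and 5.93), and over all 14626 genes both medians are near 0.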

How the data were processed

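RNA was sequenced from 24 CD11b+ brain cell samples with a directional kit, per the labels' protocols; the 18 neonatal libraries were used and the 6 adult ones entered 1 alternative fit only. The values are raw read counts per gene as deposited by the authors, per the file headers. Reads were trimmed with cutadapt 2.1 and aligned with STAR 2.7.1a to mm10, per the submitters' processing notes as far as these name the tools; which program counted reads, and whether by strand, is not given in the sources used, so overlapping, antisense and near-identical genes are uncertain.

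Counts were scaled by TMM, filtered with filterByExpr (14626 of 55434 genes kept) and fitted over the 6 groups with edgeR 4.0.16 (robust quasi-likelihood test, R 4.3.3), with Benjamini-Hochberg adjustment over all genes and a threshold of 0.05. All adjusted p-values are from edgeR, also those of the mixture above or below every single cytokine (the largest of 4 one-sided p-values), unless limma-voom (limma 3.58.1) or DESeq2 1.42.0 is named. Each SE was derived from the quasi-likelihood test, as the absolute log2 value divided by the square root of the test's F statistic. The linear value was computed from CPM within each replicate number. Library totals of 10084927 to 19316994 counts set the precision of low genes.

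Replicate numbers come from the labels. Deviations from group means correlated in all 45 same-number pairs (r = 0.18 to 0.69), over 0.1 in each, so the samples may be paired by number. The main fit holds no replicate block, since the labels do not say what the numbers stand for, and its p-values leave such a pairing out. The block fit is an alternative, given beside the counts. None of the 18 same-group pairs of libraries was identical. On simulated counts with 200 changed genes, 2.27% of calls were false. The simulated libraries were drawn independently, without the correlation by replicate number. The changed genes were picked above a level cut in every group, which Cd40, Cd69 and Ccl12 do not reach when unstimulated. The shares recovered therefore do not cover such genes. Members and gene lists were chosen with earlier results of these data known. Genes named were a set of 20 known pathway genes, the 10 largest called contrasts in each direction (mean log2 CPM of at least 2, at least 10 reads in each group, the same sign in 3 replicate numbers), up to 3 called genes a list, and the 5 lowest p-values above and below every single cytokine; other genes named inside a count were chosen after their values were seen. Genes with 0 reads in a group are given by levels. A few genes that the rule names are not reported here. Alternatives were the replicate block, DESeq2, limma-voom, RLE and total-count scaling, 3 other filters, all 24 libraries, each library left out, and linear CPM. Gene positions are those of a GENCODE annotation of mm10; promoters are from RefSeq.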

Additional observations from a re-analysis of the deposited data

How the results depend on the processing

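The 245 genes called kept the sign of their log2 contrast under each alternative fit that tested them (243 of them where at least 10 reads in each group were asked for), while the counts moved. With the replicate block, 323 genes were above and 637 below the sum, 358 above every single cytokine and 414 below every one; the block ended 0 of the 41 calls among the named genes and added Tnf, Il1b and Xkr8. DESeq2 gave 174, 338, 262 and 150 in the same order and added calls for Cxcl9, Il1b, Socs1, Tnf and Xkr8. Limma-voom gave 141 above and 27 below every single cytokine, RLE size factors 58 below every one, total counts 44 above and 1105 below every one, and a fit of all 24 libraries 142 above the sum and 167 above every single cytokine. Leaving out 1 library at a time gave 23 to 107 genes above the sum, 53 to 193 below it, 41 to 117 above every single cytokine and 23 to 100 below every one. The cause was not tested.

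On the linear CPM scale, the mean contrast over the replicate numbers turned its sign for 10 of the 41 named genes called. All 10 were below the log2 sum, and 31 kept their sign. The mean was 2209 CPM for Acod1, 1794 for Cxcl10, 426 for Cd40, 312 for Cd69 and 190.4 for Ccl12. It was 84.5 for Ccl2, 77.2 for Gbp5, 44.2 for Pim1, 27.6 for Ikbke and 1.54 for Tank. In Ccl2, Gbp5, Pim1 and Tank the replicate numbers did not all agree in sign, with 217, -187 and 202 CPM for Gbp5. Limma-voom ended 6 of the 41 calls, no filter on low counts 4, total counts 1 and the fit of all 24 libraries 1 (contrast of Epor). Besides Cxcl10, Irf1, Il4ra and Dhx33, a call was lost without unstimulated replicate 2 for Ccl2, Fam214a, Hdac9, Icosl, Rasgrp3 and Zfp36 (adjusted p = 0.0976, 0.122, 0.0721, 0.102, 0.0731 and 0.0747). Epor lost its call in 9 of the 18 fits and Iigp1 in 5. In genes with few unstimulated reads, such as Acod1, Cxcl10 and Cd40, the counting error of those reads enters the contrast with a weight of 3.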

Other observations

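Several secreted or immune genes outside the rule for named genes lay above every single cytokine; they were chosen after their values were seen. Il1rn, which encodes the interleukin 1 receptor antagonist, was at 12.6, 9.77 and 16.4 CPM unstimulated, 98.8, 134 and 163 with IFNg and 1198, 869 and 1851 with the mixture (adjusted p above every single cytokine = 0.000232). Its mixture level was 5.25 times the linear sum, and the log2 contrast was -2.26 (adjusted p = 0.387). Complement C3 was at 58.6, 74.3 and 78.4 CPM with TNFa, its highest single, and 240.0, 297 and 230.1 with the mixture (adjusted p = 0.0013), 2.29 times the linear sum. Ch25h, the enzyme that makes 25-hydroxycholesterol, was at 41.9, 55.1 and 47.2 CPM with IFNg and 438, 317 and 463 with the mixture (adjusted p = 0.0117). Il27, a cytokine subunit gene, was at 19.8, 22.8 and 3.82 CPM with IFNa, of which replicate 3 was low, and 148, 103 and 81.7 with the mixture (adjusted p = 0.011). Cst7, an inhibitor of lysosomal proteases found in disease-associated microglia, was at 8.13, 8.79 and 4.20 CPM with IFNg and 59.4, 49.8 and 53.8 with the mixture (adjusted p = 0.00836). None of the 5 passed the additive contrast, so on the log2 scale they were not placed on either side of the sum.

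A second set, also chosen after its values were seen, had mixture levels under unstimulated cells although the single responses summed to an increase. Of the 167 genes below the log2 sum, 21 had a mixture level under unstimulated cells, and 12 of them were called lower in that comparison, in which 16.4% of genes tested were. Dhx33, described above, is one of them. Heatr1, a factor of ribosomal RNA synthesis, was at 62.5, 60.0 and 70.6 CPM unstimulated, 108, 110.2 and 124 with IFNg, 133, 144 and 169 with IL-6 and 35.2, 30.6 and 30.1 with the mixture (contrast -2.152, adjusted p = 0.0103). Ddx21, a nucleolar RNA helicase, was at 111, 102 and 103 CPM unstimulated, 156, 145 and 132 with IL-6 and 78.0, 87.7 and 73.7 with the mixture (contrast -1.56, adjusted p = 0.00593). Shq1, an assembly factor of small nucleolar ribonucleoproteins, was at 6.52, 6.52 and 7.31 CPM unstimulated, 9.37, 9.60 and 9.36 with TNFa and 4.01, 3.79 and 4.03 with the mixture (contrast -2.49, adjusted p = 0.0292). In these 3 genes every mixture library was under every unstimulated library.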
